A study of Mus musculus with 4 samples.

Results

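The 9 genes that encode the cohesin subunits Rec8, Rad21, Rad21l, Stag1, Stag2, Stag3, Smc1a, Smc1b and Smc3 were chosen by name and followed across the germ cell stages and somatic cells of the adult mouse testis. All 9 were found among the 28692 genes measured. The single-cell RNA sequencing libraries came from testes of C57BL/6 mice at postnatal day 63, with 2 samples of the genotype Phf7 tKO and 2 of the genotype Phf7 f/f. The labels name no Cre driver for tKO and leave unsaid whether samples of 1 genotype are separate animals. The 4 libraries were deposited as 1 pooled table in which a barcode suffix from 1 to 4 marks the library, and no label ties a suffix to a sample or genotype. The suffixes are therefore shown as 4 unassigned libraries, the genotypes are not compared, and no p-value is given.

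Cohesin is a ring that holds sister chromatids together. A pair of SMC proteins is closed by a kleisin, and a STAG protein is bound to the kleisin. In dividing somatic cells the ring holds Smc1a, Smc3, the kleisin Rad21 and either Stag1 or Stag2. Germ cells in meiosis add Smc1b in place of Smc1a, Rec8 or Rad21l in place of Rad21, and Stag3, and these rings organise the chromosome axes and hold sister centromeres until the second division. Smc3 has no meiotic paralog.

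Transcripts were counted as unique molecular identifiers (UMI), each standing for the 3' end of 1 captured transcript. Levels are CPM, the UMI of a gene in each 1000000 UMI of a cell class. They are not scaled to transcript length, and capture differs between genes, so a level is compared between classes and not between genes. Where paralogs are set side by side, the value is a share of their summed UMI and only its change across classes is read. Intervals are exact 95% intervals that cover counting error only.

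The 4 libraries held between 44447735 and 50353091 UMI each, and 29967 of 32273 barcodes were kept as cells. Doublets remain among them, since the caller marked 1 of 29968 cells. The suffixes shared 497 of 31772 barcode sequences. Cells were clustered without the cohesin genes and their regulators, and clusters were named from marker genes as spermatogonia-like (683 cells), leptotene to zygotene spermatocyte-like (471), pachytene to diplotene spermatocyte-like (1827), round (7505) and elongating (8214) spermatid-like, with 2077 somatic cells of which 1159 were Sertoli-like, 420 interstitial mesenchymal-like, 328 Leydig-like, 129 macrophage-like and 41 endothelial-like. The ending is left out from here on. Of the markers used for naming, 10 of 12 spermatogonial and 7 of 8 leptotene to zygotene ones were detected in their clusters. Since the same markers gave the names, this is no independent check of them. The spermatogonia also carried the meiotic entry gene Stra8, with 368 CPM in leptotene to zygotene cells and 336 CPM in spermatogonia, and the mesenchymal cluster also scored high for peritubular myoid markers. A further 9190 cells (30.7%) stayed unnamed. Spermatid RNA was found in every class, and the protamine transcript Prm2 stood at 5780 CPM in spermatogonia, 11100 CPM in leptotene to zygotene cells and 1120 and 1130 CPM in the 2 pachytene to diplotene clusters. It was at 22000, 3090, 10500, 9430 and 2050 CPM in Sertoli, Leydig, mesenchymal, macrophage and endothelial cells.

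The pair Smc1b and Smc1a and their shared partner Smc3 make up the core of the ring, and the bases before their annotated starts are shown because the transcripts of this trio took different courses over the stages. Each window is the 250 bases before the RefSeq start on GRCm38.p6. Smc1b lies on the minus strand of chromosome 15 (chr15:85131958-85132207), Smc1a on the plus strand of the X chromosome (chrX:152016178-152016427) and Smc3 on the plus strand of chromosome 19 (chr19:53600146-53600395). Capitals mark TCCCGC or its reverse complement GCGGGA, the core of sites bound by E2F family factors.
Smc1b: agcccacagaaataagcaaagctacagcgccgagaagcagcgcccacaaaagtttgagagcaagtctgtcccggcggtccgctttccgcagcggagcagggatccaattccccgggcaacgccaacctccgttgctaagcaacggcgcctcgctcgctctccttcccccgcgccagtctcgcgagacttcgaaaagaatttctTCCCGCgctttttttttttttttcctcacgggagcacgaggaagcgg
Smc1a: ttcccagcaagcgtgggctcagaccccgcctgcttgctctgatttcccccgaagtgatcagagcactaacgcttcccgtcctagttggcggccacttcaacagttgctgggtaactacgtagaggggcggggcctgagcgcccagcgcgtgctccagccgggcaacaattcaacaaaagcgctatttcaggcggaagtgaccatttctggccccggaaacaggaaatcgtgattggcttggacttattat
Smc3: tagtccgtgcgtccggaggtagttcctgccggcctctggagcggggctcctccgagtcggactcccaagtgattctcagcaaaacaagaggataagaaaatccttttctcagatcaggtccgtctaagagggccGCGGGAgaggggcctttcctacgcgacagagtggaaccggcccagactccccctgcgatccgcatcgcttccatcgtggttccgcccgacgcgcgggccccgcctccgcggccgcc
The E2F core began 47 bases before the start of Smc1b and 116 bases before that of Smc3, and the Smc1a window held none. Among the 7 members with a window in the RefSeq table, Rec8 and Stag1 held it as well, 38 and 15 bases before the start, and Stag3 and Rad21l did not. By the GENCODE annotation the whole Stag1 window (250 bases) and the 129 bases of the Rec8 window nearest its start lie inside the gene, so these matches are upstream of the RefSeq start but not of the GENCODE one. Over all 32851 windows of the same length 16.9% held it. TGACGTCA, the palindromic cyclic AMP response element, was in none of the 7 and in 1.55% of all windows, and the 2 motifs share no overlap. The windows of Smc1b, Smc1a and Smc3 had 25, 16 and 26 CpG, against a median of 6 over all windows. A letter match is a description and does not show binding.

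Smc1b, the meiotic SMC1, had the most UMI of any member. Its level was 445 CPM in spermatogonia (interval 423 to 469), 872 in leptotene to zygotene cells (834 to 912), 316 in pachytene to diplotene cells, 277 in round spermatids and 28.7 in elongating spermatids. In the leptotene to zygotene cells the 4 suffixes gave 947, 801, 848 and 888 CPM, and in the spermatogonia 440.0, 459, 438 and 446 CPM, so the classes did not overlap. The level was highest in the leptotene to zygotene class. The spermatogonial cluster scored 2.65 for its own markers and 2.11 for leptotene to zygotene markers, so it is not read as cells before meiotic entry.

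Smc1a, the SMC1 of mitotic cohesin, lies on the X chromosome (152016428 to 152062694, plus strand, mm10) and was lower in leptotene to zygotene cells than in spermatogonia, opposite in direction to Smc1b. Both were lower in pachytene to diplotene cells than in leptotene to zygotene cells. Smc1a was at 51.2 CPM in spermatogonia, 12.8 CPM in leptotene to zygotene cells and 0.333 CPM in pachytene to diplotene cells, where 11 UMI were counted in 1827 cells. The leptotene to zygotene libraries gave 16.3, 15.3, 9.73 and 11.1 CPM, and the spermatogonial ones 54.1, 49.9, 54.3 and 46.5 CPM. Every value of early prophase lay below every spermatogonial one.

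The share of Smc1b in the SMC1 UMI was 89.7% in spermatogonia, 98.6% in leptotene to zygotene cells, 99.9% in pachytene to diplotene cells, 99.6% in round spermatids and 99.7% in elongating spermatids. In Leydig cells it was 25% (16.4 to 35.4) and in endothelial cells 18.8% (4.05 to 45.6, 16 UMI). Sertoli cells stood at 95.5%, mesenchymal cells at 62.5% and macrophages at 75%. Smc1b UMI were seen in 88.1% of leptotene to zygotene cells, with a median depth of 3643 UMI, against 15.5% of Sertoli cells at 1193 UMI and 6.1% of Leydig cells at 7704 UMI. The Smc1b level of the somatic classes was 103 CPM in Sertoli, 68 in mesenchymal, 53.5 in macrophage, 10.6 in endothelial and 8.48 in Leydig cells, and the first 3 of these are also the classes with the most Prm2. The part of free or doublet germ cell RNA in these values was not tested, and no somatic expression of Smc1b is read from them.

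Smc3, the partner of both SMC1 proteins, was at 346 CPM in spermatogonia, 353 in leptotene to zygotene cells, 21 in pachytene to diplotene cells, 148 in round spermatids and 11.1 in elongating spermatids. Pachytene to diplotene libraries gave 17.6, 21.8, 24.1 and 19.8 CPM, all far below the leptotene to zygotene values of 351, 389, 296 and 399 CPM. Between the 2 pachytene to diplotene clusters the level was 42.3 CPM (38.6 to 46.3) in the one richer in the division kinase Aurka and 10.3 CPM (9.01 to 11.7) in the one richer in the pachytene gene Piwil1.

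**Figure D1:**
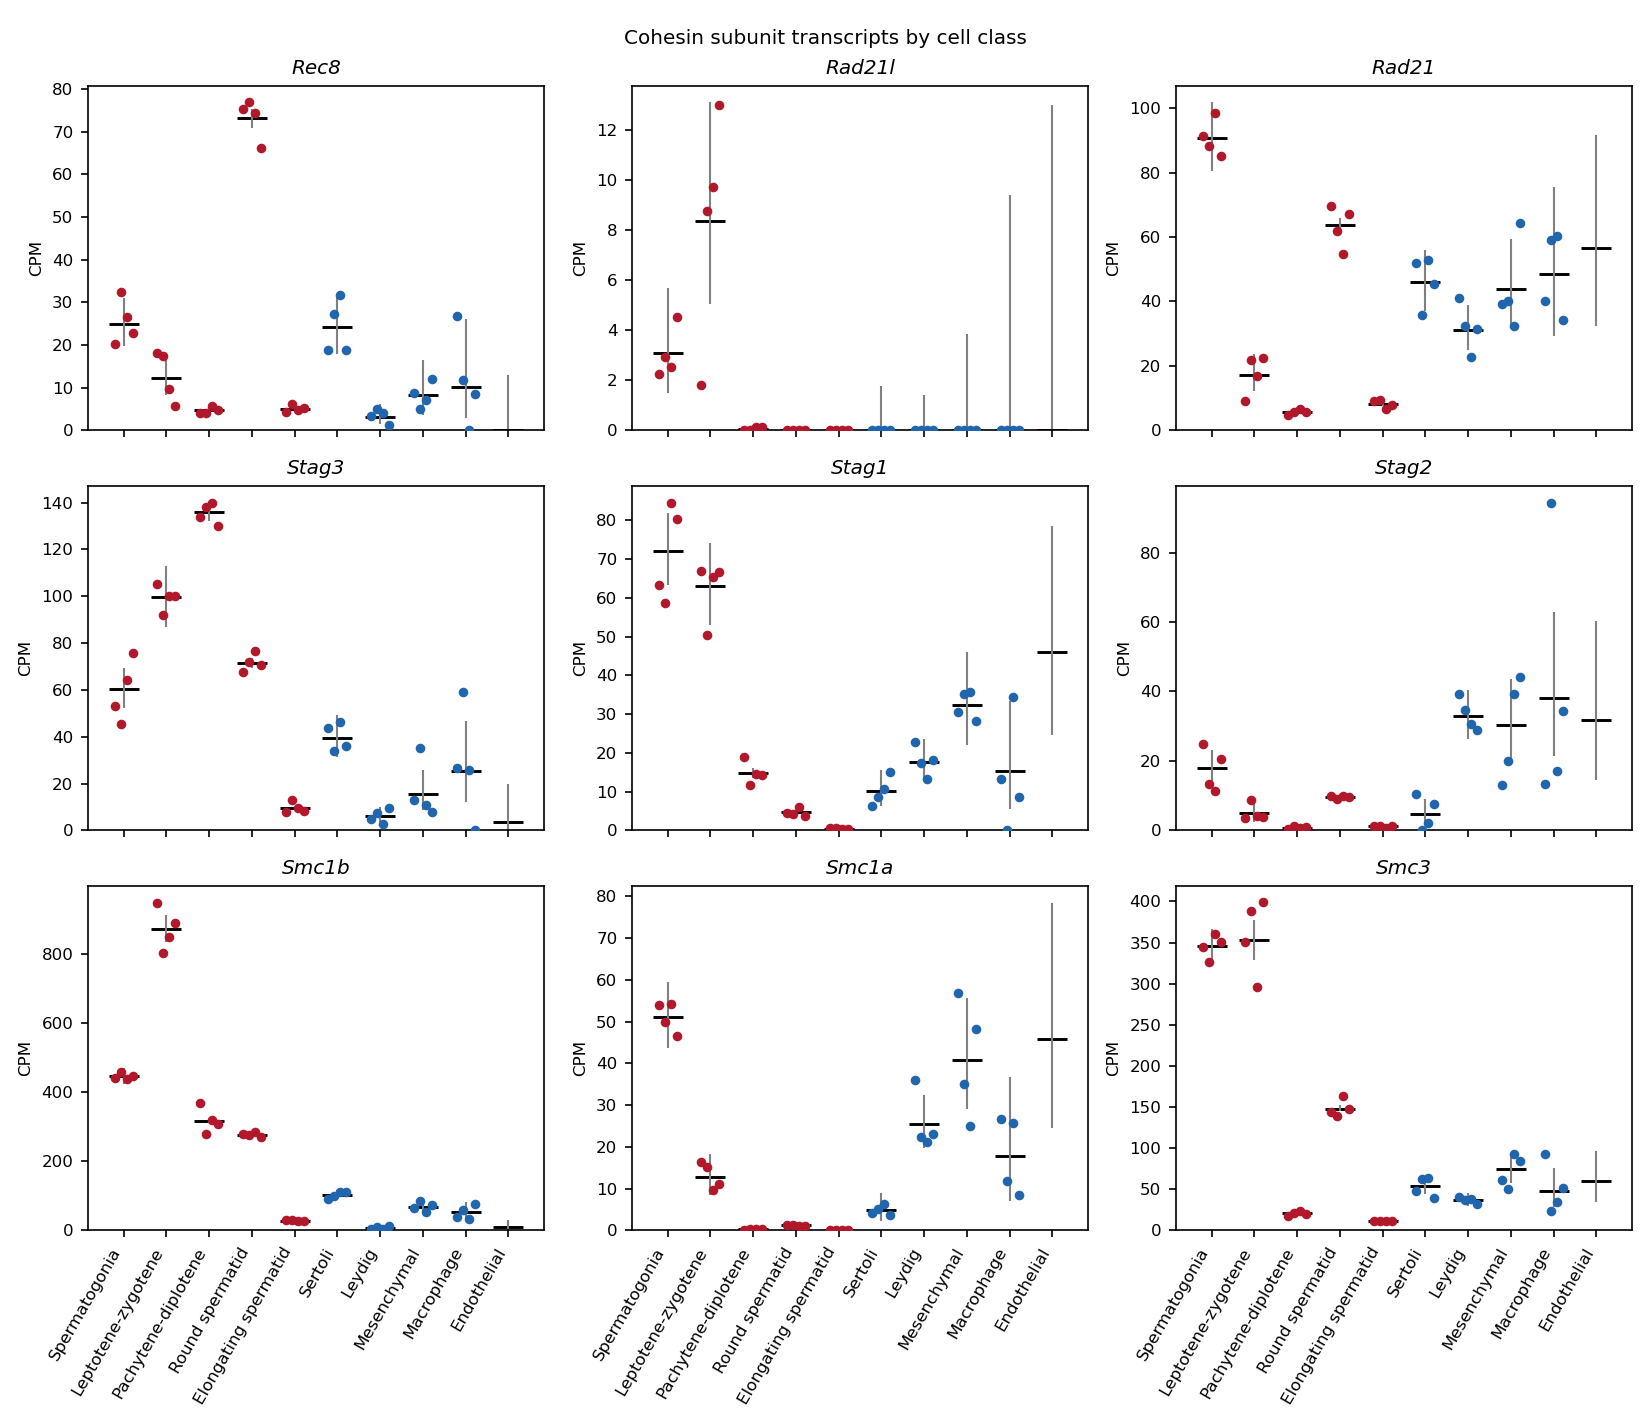
Level of each cohesin subunit in CPM (linear axes from 0, 1 panel a gene) by cell class. Points are the 4 suffixes (red, germ cells; blue, somatic cells; none for the 41 endothelial cells), black bars the pooled level and grey lines its exact 95% Poisson interval. Smc1b was highest in leptotene to zygotene cells at 872 CPM, Stag3 in pachytene to diplotene cells at 136 CPM and Rec8 in round spermatids at 73.2 CPM.

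Stag3, the meiotic STAG protein (chromosome 5, 138280240 to 138312393, plus strand), was the member that kept its level through prophase. It stood at 60.5 CPM in spermatogonia, 99.6 in leptotene to zygotene cells, 136 in pachytene to diplotene cells, 71.5 in round spermatids and 9.49 in elongating spermatids. Pachytene to diplotene libraries gave 134, 138, 140.0 and 130.0 CPM, and leptotene to zygotene libraries between 91.9 and 105 CPM. These did not overlap, and the ratio of 1.36 was under the 2-fold used for a call.

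Stag1, a mitotic STAG protein on chromosome 9, was at 72.2 CPM in spermatogonia and 63 CPM in leptotene to zygotene cells, whose libraries overlapped, and then at 14.7, 4.63 and 0.429 CPM in pachytene to diplotene cells, round and elongating spermatids. Stag2, its paralog on the X chromosome, was at 17.9, 4.85, 0.787, 9.59 and 1.12 CPM over the 5 germ cell classes in order. Stag3 made up 40.2% of the STAG UMI in spermatogonia (35.8 to 44.7), 59.5% in leptotene to zygotene cells, 89.8% in pachytene to diplotene cells, 83.4% in round spermatids and 85.9% in elongating spermatids. The remainder changed its make-up. Stag1 held 5.4% and Stag2 11.2% of the STAG UMI in round spermatids, whereas in spermatogonia Stag1 held 48% and Stag2 11.9%. Leydig cells had 10.9% Stag3 and 57.8% Stag2, and Sertoli cells had 72.6% Stag3 beside the spermatid RNA given above.

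Among the kleisins, Rad21, the mitotic subunit on chromosome 15, was at 90.7 CPM in spermatogonia, 17.2 in leptotene to zygotene cells, 5.63 in pachytene to diplotene cells, 63.6 in round spermatids and 8.1 in elongating spermatids. Rec8, the meiotic kleisin cleaved at the divisions (chromosome 14, 55618037 to 55625395, plus strand), was at 25, 12.3, 4.69, 73.2 and 5.03 CPM over the same classes. The first values are near those of cells not in meiosis, since Rec8 was at 24.1 CPM in Sertoli cells and 11.1 CPM in all somatic cells. In Leydig cells it was at 3.08 CPM. The part of free or doublet spermatid RNA in the early Rec8 levels was not tested, nor its part in the ratios and kleisin shares below. Rad21 was at its lowest germ cell level in the pachytene to diplotene class, and the Rec8 interval there (3.98 to 5.49) overlapped that of elongating spermatids (4.52 to 5.57). Rec8 in the pachytene to diplotene class came to 155 UMI in 1827 cells. Its libraries there gave 4.03, 4.08, 5.76 and 4.83 CPM, against 18.1, 17.5, 9.73 and 5.56 CPM in leptotene to zygotene cells, where the smallest value lay within the range of the later class. The Rec8 level of the pachytene to diplotene class depends on the placement of 1 cluster of 1616 cells with 94.3 CPM of Rec8, which was named round spermatid with a marker score of 1.08, against 0.96 for pachytene to diplotene. With finer clusters 84.5% of its cells fell in the pachytene to diplotene class.

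Rad21l, a meiotic kleisin known from early prophase (chromosome 2, 151645404 to 151668533, minus strand), was the rarest member with 34 UMI in 32 of all barcodes. Of these UMI 19 fell in leptotene to zygotene cells (8.37 CPM, 5.04 to 13.1), 10 in spermatogonia (3.08 CPM, 1.48 to 5.67) and 2 in pachytene to diplotene cells. None was seen in spermatids or in any somatic class. The exact upper 95% limit of the somatic level was 0.586 CPM. A floor of 3 counts in the somatic total stood at 0.476 CPM. Against that floor the level was 17.6-fold higher in leptotene to zygotene cells and 6.48-fold higher in spermatogonia. These folds take the germ cell UMI as exact, and with their counting error the lower 95% limits of the log2 ratios were 3.7 and 2.12. Over the 4 suffixes the leptotene to zygotene level was 1.81, 8.75, 9.73 and 13 CPM, and the spermatogonial level 2.26, 2.94, 2.53 and 4.53 CPM. The ratio of 2.72 between these classes went the other way in suffix 1.

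Rec8 and Rad21l together made up 23.6% of kleisin UMI in spermatogonia (19.5 to 28.2), 54.7% in leptotene to zygotene cells (43.5 to 65.4, 86 UMI), 45.8% in pachytene to diplotene cells, 53.5% in round spermatids and 38.3% in elongating spermatids. Rad21l supplied 22.1% of kleisin UMI in the leptotene to zygotene cells. The share was thus higher in every later germ cell class than in spermatogonia, by an amount that moved with the setting in elongating spermatids. In cells with at least 1000 genes it was 24.8% in elongating spermatids and 21.6% in spermatogonia. With equal weight per cell these were 47.3% and 27.4%. The pachytene to diplotene kleisin share was 69% with finer clusters, 70.1% in cells with at least 1000 genes and 80.7% without gene scaling, and 73.2% with the cluster of 1616 cells placed in it, settings under which cells are assigned to the class differently.

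**Figure D2:**
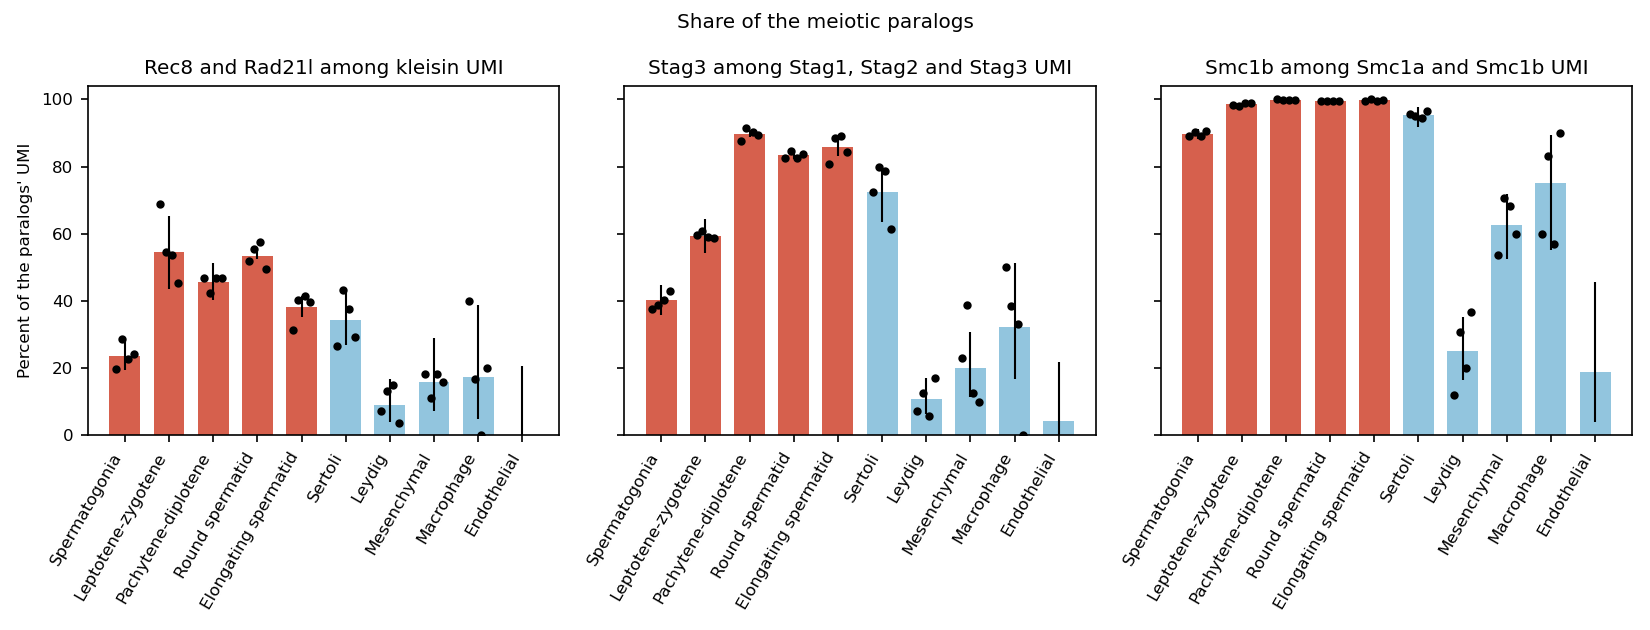
Share of the meiotic paralogs in the UMI of each set (percent, linear axis from 0; left, Rec8 and Rad21l of the 3 kleisins; middle, Stag3 of the 3 STAG genes; right, Smc1b of the SMC1 pair) by cell class. Bars are pooled values (red, germ cells; blue, somatic cells), lines exact 95% binomial intervals and points the 4 suffixes. The kleisin share was 54.7% in leptotene to zygotene cells and 23.6% in spermatogonia, and its 45.8% in pachytene to diplotene cells ran to 80.7% under other ways of forming the class.

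Ratios between successive classes were next compared with those of all genes. A gene with at least 50 UMI over both classes was called when its pooled ratio was at least 2-fold and had the same direction in every suffix. With 1 pooled sample this is a rule of size and not a test, and a ratio of CPM cannot tell less RNA of a gene from more RNA of others.

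In leptotene to zygotene cells over spermatogonia, 4 of the 8 members that passed the minimum fell and 0 rose, whereas 19.1% of 9122 genes fell and 10.4% rose. Those that fell were Rad21 (log2 ratio -2.40, -2.92 to -1.91), Smc1a (-2), Stag2 (-1.88) and Rec8 (-1.02, -1.69 to -0.38). Smc1b at 0.97 and Stag3 at 0.72 were higher in all 4 suffixes without reaching 2-fold, while Stag1 (-0.20) and Smc3 (0.03) stayed near equal. The Rec8 call was lost at -0.84 without suffix 4, -0.85 without suffix 3 and between -0.78 and -0.58 under 3 ways of forming the classes, while Smc1b passed 2-fold at 1.39 with equal weight per cell. Without suffix 4 the count of members called was 2. X-linked genes as a group had a median of -0.83, against -0.08 for all genes, and Smc1a and Stag2 lay below both.

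In pachytene to diplotene over leptotene to zygotene cells, 5 of 6 members that passed fell, against 33.6% of 11308 genes, and 0 rose, against 23.8%. Smc3 fell most (-4.07, 16.8-fold), followed by Stag1 (-2.10), Rad21 (-1.61), Smc1b (-1.47) and Rec8 (-1.40), while Stag3 was at 0.45. The median of all genes was -0.32. Rec8 had a ratio of 0.02 in cells with at least 1000 genes, -0.03 with finer clusters, 0.14 when every cell had equal weight and 0.62 with the cluster of 1616 cells placed in the class, so its direction depends on which cells enter the class. With equal weight per cell Rad21 was at -0.61 as well, and 3 members were called. The same cluster of 1616 cells held 1561 UMI of Smc3 (248 CPM), against 694 UMI in the whole pachytene to diplotene class. The size of the Smc3 fall therefore depends on its placement too. Smc1a, Stag2 and Rad21l had under 50 UMI over the 2 classes, with ratios of -5.26 (-6.41 to -4.22), -2.62 (-3.69 to -1.46) and -7.11 (-10.26 to -5.06). X-linked UMI made up 0.113% of the pachytene to diplotene total and 1.2% of the leptotene to zygotene total, and 79.1% of 234 X-linked genes fell, with a median of -3.54. Smc1a was below and Stag2 above that median.

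In round spermatids over pachytene to diplotene cells, 5 of 8 members rose, against 34.5% of 14073 genes, and 1 fell, against 35.2%. Rec8 rose 15.6-fold (log2 ratio 3.96, 3.73 to 4.2), Stag2 12.2-fold (3.61), Rad21 11.3-fold (3.5), Smc3 7.06-fold (2.82) and Smc1a 3.63-fold (1.86, 0.93 to 2.93). Round spermatid libraries gave 75.3, 76.9, 74.5 and 66.1 CPM of Rec8, against 4.03, 4.08, 5.76 and 4.83 CPM in pachytene to diplotene cells, and the ranges lay wide apart. Stag1 fell (-1.67), and Stag3 (-0.93) and Smc1b (-0.19) were not called. The ratio of Rec8 was between 1.45 and 3.96 over the ways of forming the classes, and that of Smc1a was 0.26 and 0.53 with coarser and finer clusters, 0.65 without gene scaling and 0.63 with equal weight per cell, where it no longer reached 2-fold. With the cluster of 1616 cells placed in the pachytene to diplotene class 4 members rose and 2 fell, with Rec8 at 1.89, Stag2 at 1.69, Smc3 at 1.24, Smc1a at 0.36 and Stag3 at -1.07. Without gene scaling before clustering 3 members were called, and Smc3 (0.91) was not among them. The 403 X-linked genes had a median of 3.69, with 89.8% called higher. The X-linked Stag2 lay close to it and Smc1a below, while Rec8, Rad21 and Smc3, which also rose, are autosomal, where the median was -0.38.

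In elongating over round spermatids, 8 of 8 members fell, between -2.91 (Stag3) and -3.86 (Rec8 and Smc1a), against 69.4% of 13652 genes, and 0 rose, against 5.74%. The median of all genes was -1.93. Relative to that median the members lay between -0.99 and -1.93, so the count is read against a transcriptome in which most genes fell as a share. Smc1b had 28.7 CPM in elongating spermatids, against 277 CPM in round spermatids.

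In spermatogonia over somatic cells, 7 of 8 members rose, against 25.4% of 12036 genes, and 0 fell, against 21.5%. Smc1b was 8.63-fold higher (log2 ratio 3.11), Smc3 6.95-fold (2.80) and Stag1 3.89-fold (1.96), with Stag3 at 1.62, Smc1a at 1.26 and Rec8 and Rad21 each at 1.17. Stag2 was the member not called (-0.39, -0.86 to 0.05). Without the Sertoli cells, whose Prm2 was the highest of the somatic classes, Smc1b was at 4.08, Stag3 at 2.60, Rec8 at 2.40 and Smc1a at 0.79, the last under 2-fold as it was at 0.83 in cells with at least 1000 genes. Rec8 was under 2-fold at 0.78 with finer clusters and between 0.70 and 0.82 in 3 further settings, and Rad21 was at 0.88 with equal weight per cell.

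In leptotene to zygotene over somatic cells, 4 of 8 members rose, against 23% of 11441 genes, and 2 fell, against 28.9%. Smc1b (4.08), Smc3 (2.82), Stag3 (2.34) and Stag1 (1.76) were higher. Stag2 (-2.28) and Rad21 (-1.22, -1.75 to -0.73) were lower, with Smc1a at -0.75 and Rec8 at 0.15. Rad21 had 9.04, 21.9, 16.7 and 22.3 CPM in the leptotene to zygotene libraries, against 42.8, 38, 36.4 and 43 CPM in the somatic ones, which did not overlap. Its ratio was -0.99 without suffix 1 and in cells with at least 1000 genes, and that of Smc1a was -1.21 without the Sertoli cells.

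**Figure D3:**
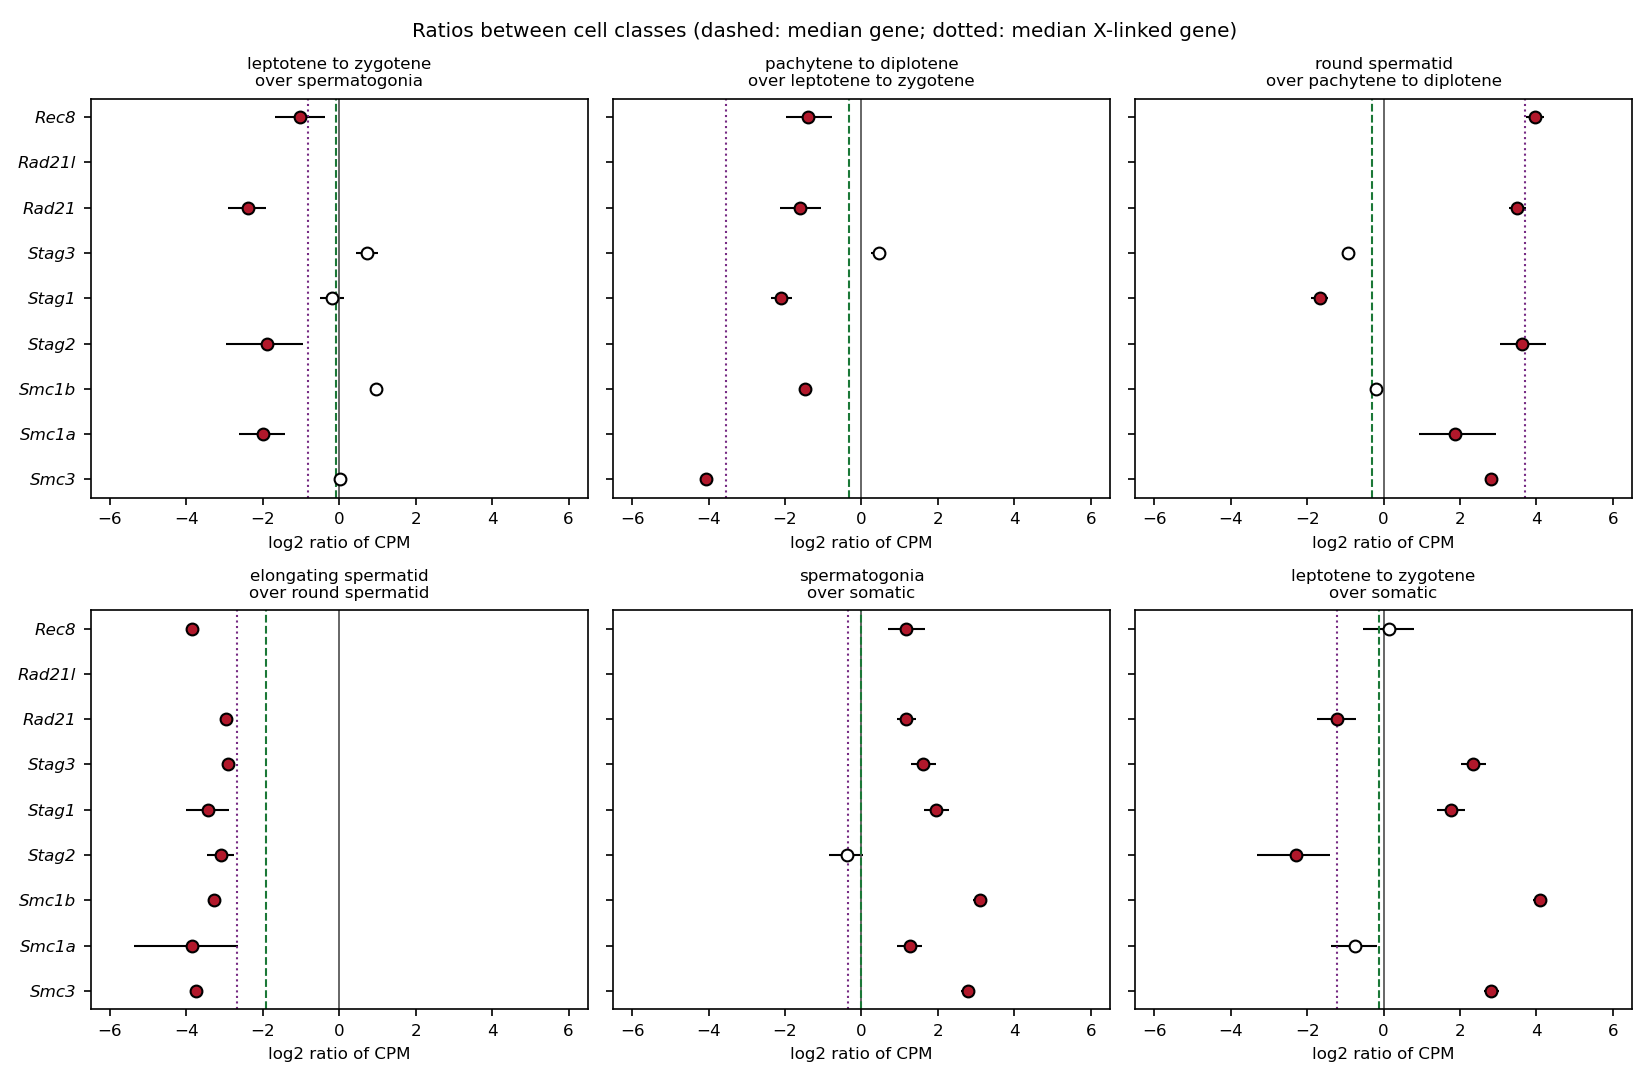
Log2 ratio of CPM (x axis) of each cohesin subunit with at least 50 UMI in 6 comparisons of cell classes, 1 panel each. Points are pooled ratios (filled, called; open, not called), lines exact 95% intervals, the dashed line the median of all genes and the dotted line the median of X-linked genes. In round spermatids over pachytene to diplotene cells 5 members lie to the right of 1 and Stag1 lies at -1.67.

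The round spermatid class held 6 clusters that differed in their kleisin shares. Ordered by the transition protein gene Tnp1, an order chosen after the values were seen and not a measured time, they held 65%, 87.1%, 67.9%, 40.9%, 41.7% and 10.9% Rec8 among the kleisin UMI. Tnp1 itself stood at 4700 CPM in Sertoli cells, and the part of free RNA in the order was not tested. The first cluster held less Piwil1 and Aurka (6.66 and 108 CPM) than the second (32.6 and 272 CPM). Ordered by falling Piwil1 or Aurka, the second would come before the first. In the second of these clusters Rec8 was at 94.3 CPM and Rad21 at 14 CPM, with 1616 cells and 1000 CPM of Tnp1. This cluster lies at the boundary with the spermatocytes described above, and over the other 6 ways of forming the classes between 66.1% and 89.9% of its cells were named round spermatid. In the last Rec8 was at 13.3 CPM (11.4 to 15.4) and Rad21 at 109 CPM (103 to 114), with 1364 cells and 8040 CPM of Tnp1. With a minimum of 1000 genes 45.5% of its cells were named round and 38.1% elongating spermatid, and otherwise 76% to 100% were named round. The cluster before it, with 4730 CPM of Tnp1, was named round for 0.488% of its cells with that minimum. This was 0.293% without the 6% highest doublet scores, and 93.1% to 99.8% otherwise. The round spermatid marker Acrv1 stood at 92.6 CPM in this cluster, against 414 to 1840 CPM in the other round clusters. Sertoli cells had 72.9 CPM of it, so the name of this cluster is weakly borne out. The part of free spermatid RNA in its kleisin share was not tested. Over the 4 suffixes the Rec8 share was 90.2%, 87.9%, 85.4% and 85.6% in the cluster with 1000 CPM of Tnp1 and 10.4%, 11.4%, 9.68% and 11.8% in the one with most Tnp1.
The clusters compared hold the highest and lowest share of the 6 and were picked from these values, so their separation is a description only. The difference had the same direction in each library. Stag3 kept 75.2% to 89.4% of the STAG UMI over the same 6 clusters while its level ran between 129 and 33.4 CPM. Smc3 was at 248 and 246 CPM in the clusters with 1000 and 2030 CPM of Tnp1, and at 67.8 CPM in the one with 8040 CPM. The first cluster of the order, with 787 CPM of Tnp1, had a median of 28471 UMI per cell, against 1578 to 3471 UMI in the other 5.

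**Figure D4:**
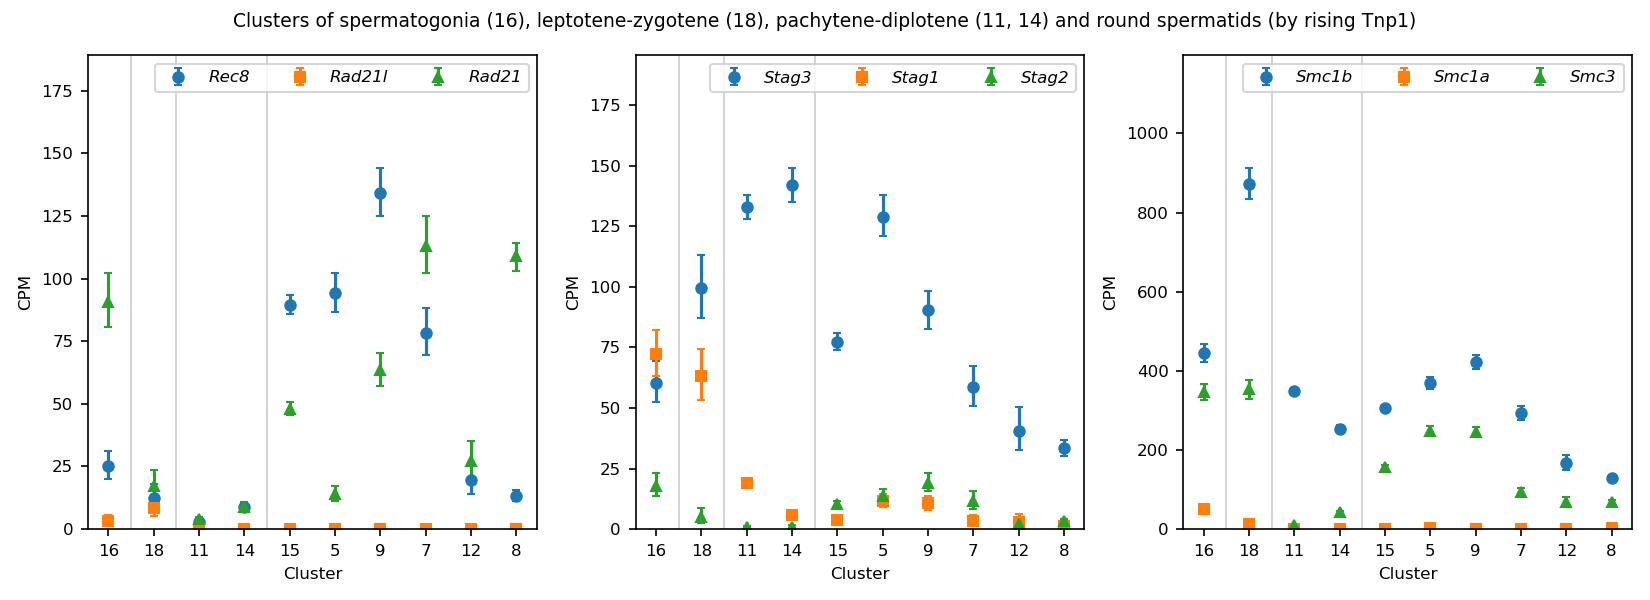
Level in CPM (linear axis from 0) of the kleisins (left), STAG genes (middle) and SMC genes (right) in clusters of spermatogonia (16), leptotene to zygotene (18), pachytene to diplotene (11, 14) and round spermatid cells (ordered by rising Tnp1). Bars are exact 95% Poisson intervals. Rad21 stood at 14 CPM in cluster 5 and at 109 CPM in cluster 8, where Rec8 stood at 94.3 and 13.3 CPM.

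The genes that load, protect, release and cleave cohesin were described from a list of 22, all found under their current or older symbols. In leptotene to zygotene cells over spermatogonia, 3 of 19 with enough UMI rose and 4 fell (15.8% and 21.1%), near the 10.4% and 19.1% of all genes. Meikin, which protects centromeric cohesion in meiosis I, rose (log2 ratio 3.45), as did the loader Nipbl (1.79) and the kinase Bub1 (1.43). The kinase Aurkb (-5.24), the mitotic cohesion factor Cdca5, also called sororin (-2.14), and the separase gene Espl1 (-1.43) fell most.

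In pachytene to diplotene over leptotene to zygotene cells 5 of 19 rose and 6 fell (26.3% and 31.6%), near the 23.8% and 33.6% of all genes. Aurkb (3.96), its germ cell relative Aurkc (3.28) and Plk1 (2.06) rose most. The acetyltransferase Esco2, which locks cohesin on chromatin (-4.70), the shugoshin gene Sgo1 (-2.82) and Bub1 (-2.40) fell most. Nipbl was at 418 CPM in pachytene to diplotene cells, against 279 CPM in leptotene to zygotene cells, and was not called.

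In round spermatids over pachytene to diplotene cells 1 of 20 rose and 13 fell (5% and 65%), against 34.5% and 35.2% of all genes. The one that rose was Ctcfl, the germ cell paralog of Ctcf (5.86, 4.49 to 7.74), which stood at 7.03 CPM in round spermatids and 0.121 CPM in pachytene to diplotene cells. It was higher earlier, at 15.1 CPM in spermatogonia and 9.7 CPM in leptotene to zygotene cells. The placement of the boundary cluster described above enters each count that uses pachytene to diplotene cells, and its effect on the regulators is not given here. Sgo2a, the shugoshin that guards Rec8 (-3.19), Aurkb (-2.65) and Sgo1 (-2.59) fell most. In elongating over round spermatids 18 of 19 fell, against 69.4% of all genes with a median of -1.93, led by Ctcfl (-6.18), Nipbl (-3.46) and Meikin (-3.43), and Haspin, a kinase gene known for expression in haploid germ cells, was at 430.0 CPM in elongating and 558 CPM in round spermatids (-0.37).

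Against somatic cells, 14 of 19 regulators were higher and 0 lower in spermatogonia, against 25.4% and 21.5% of all genes, led by Esco2 (5.75), Sgo1 (5.19) and Aurkb (5.13). In leptotene to zygotene cells 8 of 15 were higher and 0 lower, against 23% and 28.9% of all genes, led by Esco2 (5.77), Sgo2a (4.37) and Bub1 (3.69).

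Likeness between members was described by Pearson's r of log2(CPM + 1) over 22 clusters, which share libraries and differ in depth. The closest pair was Stag3 and Smc1b at 0.94. Stag1 and Smc1a were at 0.78, Stag2 and Smc1a at 0.76, Rec8 and Rad21 at 0.58, and Smc1a and Smc1b at 0.05. Among 10812 genes the closest to Rec8 were Lurap1 (0.963), Shcbp1 and Nrm (both 0.959), and those closest to Rad21 were Tmem123 (0.906), Usmg5 (0.902) and Parn (0.889). Rad21l with its 31 UMI was closest to Stra8 (0.954), Prss50 (0.931) and Map7d2 (0.904). The nearest to Stag3 were Tmem116 (0.979), Lsm2 (0.971) and Sephs2 (0.970), and to Smc1b Plk4 (0.958), Kif3a (0.951) and Gtf2f1 (0.945). Smc1a lay nearest to Rpl36a (0.969), Atrx (0.968) and Itgb1 (0.95), of which the first 2 are also X-linked. For Stag1 the nearest were Ythdf1 (0.970), Thrap3 (0.968) and Nfyc (0.963), for Stag2 Gm10116 (0.946), Nfe2l2 (0.938) and Etfb (0.928), and for Smc3 Fam208b (0.95), Tex15 (0.943) and Rpain (0.934).

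In the germ cell classes, among members with at least 100 UMI in the suffix that counted most, the highest suffix was between 1.04 and 1.62 times the lowest. The median over all genes of that depth was between 1.22 and 1.26. Stag1 in pachytene to diplotene cells, with suffix values of 19, 11.7, 14.5 and 14.4 CPM, and Stag3 in elongating spermatids, with 8.03, 12.8, 9.38 and 8.46 CPM, had the widest spreads of these at 1.62 and 1.60. Members with fewer UMI are not covered by that range, among them Stag3 in spermatogonia, with 53, 45.5, 64.4 and 75.9 CPM from 196 UMI. No suffix is tied to a genotype, so these spreads say nothing of Phf7.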

How the data were processed

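The deposited table holds unnormalized UMI counts, and per the submitters' processing notes the authors used bcl2fastq 2.19.1.403, Cell Ranger 3.0.2 and the mouse build mm10. The annotation release the authors counted against was not given in the sources used here. Per the labels, the libraries were 3' end libraries read on a pair of instruments. Droplets hold free RNA, and 3' end counting does not resolve isoforms.

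The members and gene lists were chosen with earlier results of these data known. Kept cells had 500 or more genes and a mitochondrial share of up to 10%. Doublet calling by suffix with Scrublet removed 1 cell (0.00334%) and so did not work. Cells were scaled to 10000 UMI, log transformed, reduced to 30 principal components of 2000 scaled variable genes without the cohesin genes, and clustered (15 neighbours, Leiden resolution 1) with scanpy 1.11.5. Clusters were named by the mean z score of marker genes (0.5 or more, a lead of 0.05, 3 markers detected, a median of 1000 UMI), a rule set after the clusters were seen, as was gene scaling. UMI were summed per class. Ratios have exact conditional binomial intervals, levels exact Poisson intervals and shares exact Clopper-Pearson intervals, and a count of 0 was set to 3 counts in a ratio. The calling procedure was tested on simulated data with counting error only, which leave out spread between libraries, free RNA and the placement of cells in classes. Gene positions are from GENCODE M21 (mm10), which held 28339 of the 28692 gene IDs, and promoter windows and their build are from RefSeq. The 9 members were named always, and regulators were named as the 3 highest and 3 lowest called ratios of a comparison. The planned genotype test was not run because no suffix could be tied to a sample. Alternatives were other cell filters, resolutions, UMI minimums, scalings, cell weights and each suffix left out.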

Additional observations from a re-analysis of the deposited data

How the results depend on the processing

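The counts of members called, and of classes in which a meiotic share passed 50%, moved by more than 1.5 times in 5 repeats and by no more than that in 118. In pachytene to diplotene over leptotene to zygotene cells the number of members called was 8 with a minimum of 10 UMI, 8 with none and 3 with equal weight per cell, against 5. In round spermatids over pachytene to diplotene cells it was 3 without gene scaling, an alternative chosen after seeing the data, against 6. In leptotene to zygotene cells over spermatogonia it ran from 2 (without suffix 4) to 5 when each suffix was left out, against 4. Rec8 in pachytene to diplotene over leptotene to zygotene cells reversed, to 0.02 in cells with at least 1000 genes, 0.14 with equal weight per cell and 0.62 with the boundary cluster of 1616 cells placed in pachytene to diplotene, also chosen after seeing the data. Other causes of these moves were not tested, apart from the minimum, which sets how many members are counted. Of the other repeats, of values other than those counts, 689 moved by less than the interval or spread and 180 by more, without a reversal. The UMI minimum does not enter a member's ratio, so repeats with another minimum could not move it. At resolution 0.5 and without gene scaling no cluster was named spermatogonia or leptotene to zygotene, so these comparisons have no value there. Depth limits Rad21l, Smc1a and Stag2. No paired analysis was possible because no suffix could be tied to a sample, and the replicate block was not run.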

Other observations

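The unnamed cells, mostly of low depth with a median of 995 UMI, held 417 UMI of Rec8 (29.8 CPM), 2204 of Smc1b (158 CPM) and 744 of Stag3 (53.2 CPM). Rad21l was listed at 0 UMI in these 9190 cells, with an exact upper 95% limit of 0.264 CPM. The meiotic shares among them were 53.9% of kleisin, 86.5% of STAG and 98.3% of SMC1 UMI. One of the unnamed clusters, with 257 cells led by the immune genes Cd74 and H2-Aa, had 35.1 CPM of Smc1a and 80.9 CPM of Smc1b. Prm2 stood at 16300 CPM in that cluster and at 11200 and 15100 CPM in the largest unnamed ones. The part of free or doublet germ cell RNA in the values of the unnamed cells was not tested.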
